A study of Rattus norvegicus with 2 samples.

Results

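The pituitary hormone genes examined here are 8 rat genes: growth hormone (Gh1), prolactin (Prl), proopiomelanocortin (Pomc), the glycoprotein hormone alpha subunit (Cga), the beta subunits of thyrotropin (Tshb), lutropin (Lhb) and follitropin (Fshb), and the receptor for growth hormone-releasing hormone (Ghrhr). They were taken from a list of names chosen because the genes are lower in the aneurysm library, and are 8 of 15159 genes with a matched probe. All 8 had a probe, and Ghrhr had 2, which made 9 probes. The libraries were an intracranial aneurysm lesion of rat, excised 3 weeks after induction (1 array), and intracranial arterial wall from an untreated rat or rats (1 array). The labels give no strain, sex, age, method of induction or number of animals, and do not say whether tissue was pooled. RNA was hybridised to a one-colour Agilent array, on which a spot's brightness reports how much labelled transcript bound to it. With 1 array per group no difference has a replicate check, so precision is limited by the number of arrays and no test was made. In whole tissue fewer cells of a type and less RNA per cell cannot be told apart. Because the list was chosen on the difference between these 2 libraries, the differences of its genes are a description.

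The anterior pituitary makes growth hormone in somatotropes, prolactin in lactotropes, corticotropin from the Pomc precursor in corticotropes, and the glycoprotein hormones in thyrotropes and gonadotropes. Each glycoprotein hormone pairs the common alpha subunit with a beta subunit of its own. Pomc is also transcribed in the intermediate lobe, where it gives melanotropin, and in neurons of the hypothalamic arcuate nucleus; Cga and Tshb are also transcribed in the pars tuberalis around the pituitary stalk. The gland lies at the base of the brain, close to the arterial circle from which intracranial arteries are dissected.

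Promoters are shown for those members that both arrays detected, because they were listed together as lower in the same library. RefSeq's promoter table (GRCr8) held entries for 6 of the 8 genes, among them the detected genes Pomc, Cga, Tshb and Lhb. The detected genes Gh1 and Fshb had no entry. The 250 bases upstream of the annotated start are printed on the gene's strand, and position -1 is the base before the start. Capitals mark a TATA box (TATAAA) and, in Lhb, a site matching the binding sequence of the gonadotrope factor SF-1 (TGACCTTG), both searched on either strand. Pomc lies at chr6:32659103-32659352 (+), Cga at chr5:54283090-54283339 (+), Tshb at chr2:192918055-192918304 (-) and Lhb at chr1:105037207-105037456 (+).
Pomc: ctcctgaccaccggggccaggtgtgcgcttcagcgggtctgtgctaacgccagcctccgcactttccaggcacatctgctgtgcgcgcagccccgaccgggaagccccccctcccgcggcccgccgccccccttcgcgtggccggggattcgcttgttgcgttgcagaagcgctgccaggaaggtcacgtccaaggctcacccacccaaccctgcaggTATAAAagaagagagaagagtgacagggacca
Cga: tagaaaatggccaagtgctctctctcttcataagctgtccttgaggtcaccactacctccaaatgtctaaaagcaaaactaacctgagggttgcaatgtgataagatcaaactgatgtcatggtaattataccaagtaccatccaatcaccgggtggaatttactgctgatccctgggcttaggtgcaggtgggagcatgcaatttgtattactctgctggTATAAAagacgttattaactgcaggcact
Tshb: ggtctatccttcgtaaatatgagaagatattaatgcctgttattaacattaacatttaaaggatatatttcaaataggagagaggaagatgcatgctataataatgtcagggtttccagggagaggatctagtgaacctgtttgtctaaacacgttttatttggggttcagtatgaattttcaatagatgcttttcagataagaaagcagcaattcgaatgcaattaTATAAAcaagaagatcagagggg
Lhb: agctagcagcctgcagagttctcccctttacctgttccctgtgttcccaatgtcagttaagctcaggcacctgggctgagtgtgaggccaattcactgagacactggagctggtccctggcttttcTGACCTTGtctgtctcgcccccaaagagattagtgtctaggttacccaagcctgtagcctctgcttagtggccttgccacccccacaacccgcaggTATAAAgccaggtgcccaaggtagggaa
The TATA box stood at -32 to -27 in Pomc, -29 to -24 in Cga, -23 to -18 in Tshb and -28 to -23 in Lhb. The SF-1 match of Lhb stood at -124 to -117. The table lists a second, downstream start for Lhb, from which the same TATA box lies at -235 to -230 and the 250 bases hold no SF-1 match; the upstream start is the one printed. Of 33469 promoters in the table, 12.9% held TATAAA and 1.33% held TGACCTTG in these 250 bases. The core sequence of the somatotrope and lactotrope factor Pit-1 (TATNCAT), held by 8.73% of promoters, was found in Prl alone among the members' entries, at -24 to -18 on the opposite strand. The full cyclic AMP response element (TGACGTCA), held by 1.59%, was found in none of the members' entries. Gh1 and Fshb, without an entry, were not searched for any of these sequences.

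Most values below are linear processed intensities from the scanner software, given for each repeat spot of a probe. A difference is log2 aneurysm minus control after each array's 75th percentile was subtracted (801 in the aneurysm library, 621 in the control). The value after ± is the spot error, from the spread between repeat spots on an array, which holds no variation between animals. A probe is called well above background where at least as many of its spots carry the software's flag as do not. None of the members' spots, 17 on each array, was saturated or marked as an outlier. The 308 negative-control spots had a median intensity of 3.10 in the aneurysm library and 3.40 in the control. Intensities of different genes come from different probes, so 1 gene's level is not ranked against another's, and sums over a list are compared between libraries only.

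Both arrays detected 6 of the 8 genes well above background, the control array alone detected Ghrhr, and neither detected Prl. At least 2-fold lower in the aneurysm library were Pomc, Gh1 and Cga, 3 of the 8, where 3.91% of all 11902 genes with a value were that much lower. The list was chosen on this difference, so nothing is read from that count. Of all genes, 0.882% were at least 2-fold higher, and the median over all genes was 0.001.

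Pomc, the precursor of corticotropin, melanotropin and beta-endorphin, had the lowest difference of the 8. Its spots read 629 and 629 in the aneurysm library, against 3836 and 3809 in the control. The repeat spots of each array lay close together and far from those of the other array. The scaled difference was -2.97 ± 0.06, which is 7.84-fold lower in the aneurysm library, or 12.8% of the control level. In rank it was 99 from the lowest of 11902 genes. The Pomc transcript was still well above background in the aneurysm library, at 203 times the median of the negative controls there, against 1126 times in the control.

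Gh1, which encodes the growth-promoting hormone of somatotropes, was at 68.5 and 75.4 in the aneurysm library, against 269 and 255 in the control. Both spots of the aneurysm array were below both of the control array. The difference was -2.23 ± 0.12, or 4.71-fold lower, and 152 from the lowest among all genes. With normexp background correction it was -1.55, where the added offset of 50 shrinks differences of dim genes by construction.

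Prl, the lactation hormone and close relative of growth hormone, was well above background on neither array. Its spots were at 3.48 and 3.16 in the aneurysm library, against 11.2 and 13.3 in the control. In the aneurysm library 53.9% of negative-control spots lay below the dimmer Prl spot, and the software called neither spot positive and significant. In the control library 99.4% of negative-control spots lay below it, and the software called both spots positive and significant. No fold is given for Prl, since neither library had a level.

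Ghrhr, the somatotrope receptor through which the hypothalamus drives growth hormone release, was close to background on its 2 probes. The first probe read 8.69 and 14.0 in the aneurysm library, neither flagged, against 21.1 and 13.6 in the control, of which 1 was flagged. The spots of the arrays overlapped. The difference was -0.99 ± 0.61, or 1.99-fold lower (-0.51 with normexp background correction). It is the measured difference between 2 dim levels and sets no lower limit on the fold. The second probe, with 1 spot per array, read 12.3 in the aneurysm library and 12.7 in the control and was not well above background on either.

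**Figure D1:**
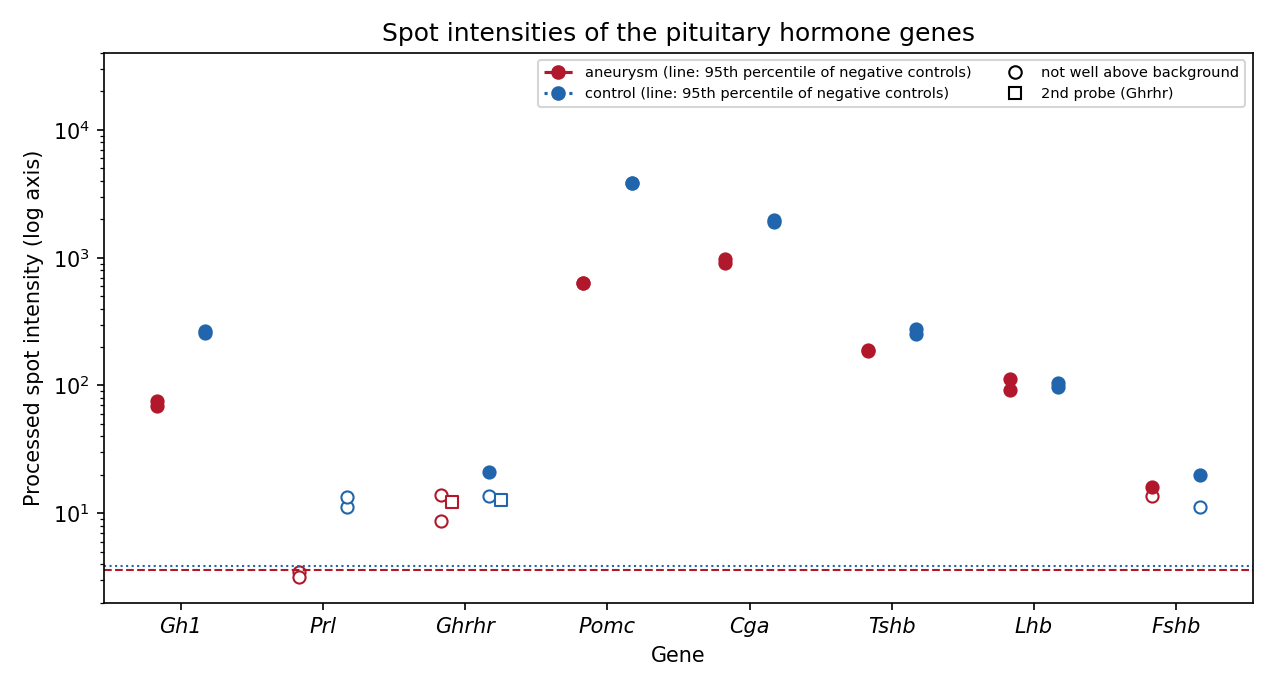
Processed intensity of every spot of the 8 genes, on a log axis, with the aneurysm library left of the control library. Filled points are spots flagged well above background, open points are not, squares are the second Ghrhr probe, and the lines are the 95th percentile of the negative-control spots (3.58 in the aneurysm library, 3.90 in the control). Pomc, Gh1, Cga and Tshb have aneurysm spots below control spots, while those of Lhb and Fshb overlap before scaling.

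Among the glycoprotein hormone genes the alpha subunit had the lowest difference. Cga, whose product is common to thyrotropin, lutropin and follitropin, read 907 and 986 in the aneurysm library, against 1902 and 1984 in the control. The spots did not overlap, and the difference was -1.41 ± 0.06, or 2.65-fold lower. It was 302 from the lowest among all genes.

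Tshb, which gives thyrotropin its specificity, was at 186 and 191 in the aneurysm library, against 251 and 276 in the control. These spots did not overlap either, and the difference was -0.85 ± 0.10, or 1.80-fold lower. With spike-in scaling it was -0.55.

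Lhb, the beta subunit of lutropin, read 111 and 92.8 in the aneurysm library, against 105 and 97.2 in the control. Before scaling the spots of the arrays overlapped, and the ratio of the mean intensities was 1.01. Its difference of -0.36 ± 0.14 thus came from the scaling, and with spike-in scaling it was -0.055.

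Fshb, the beta subunit of follitropin, was dim. It read 13.7 and 15.9 in the aneurysm library, against 19.9 and 11.1 in the control, with 1 of 2 spots flagged on each array. The spots overlapped, and the difference of -0.38 ± 0.61 was smaller than its spot error (-0.07 with spike-in scaling). Lhb and Fshb were the members nearest to 0.

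The differences of the 7 members with a value ranged from -2.97 for Pomc to -0.36 for Lhb. As a description, with errors that cover spot noise alone, Gh1 minus Pomc was 0.74 ± 0.14, Cga minus Gh1 was 0.83 ± 0.14, Tshb minus Cga was 0.56 ± 0.11 and Lhb minus Cga was 1.05 ± 0.15. Of 15 pairs among the 6 members detected on both arrays, 12 had gaps past 2 spot errors. Those that did not were Fshb minus Cga (1.03 ± 0.61), Fshb minus Tshb (0.47 ± 0.62) and Lhb minus Fshb (0.02 ± 0.63). Gaps also depend on the processing: with normexp Gh1 was at -1.55 and Cga at -1.37. These gaps are between genes chosen as lower in the same 2 libraries, and whether they would recur in other animals was not tested.

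**Figure D2:**
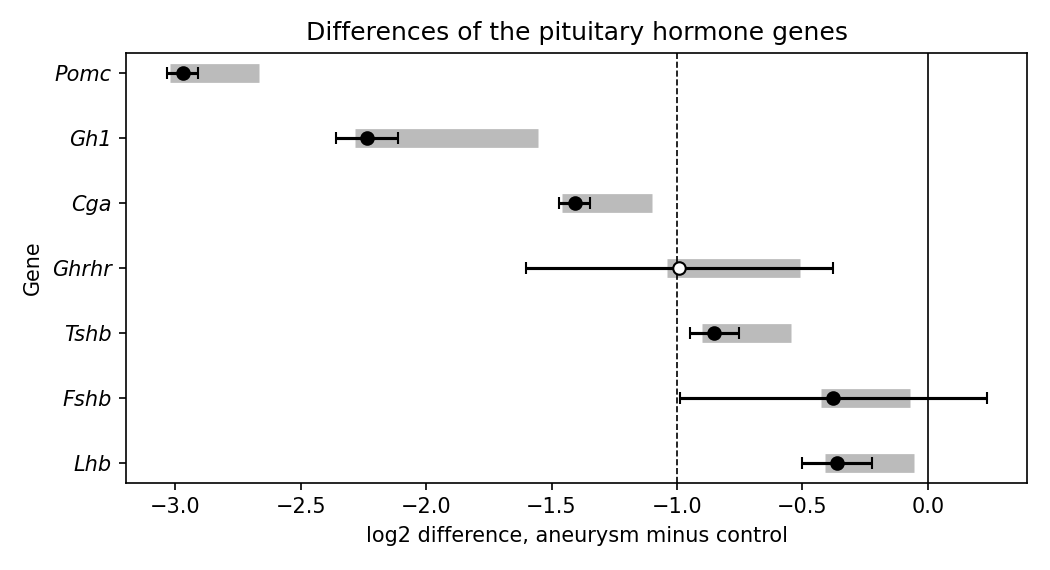
Differences (log2 aneurysm minus control) of the 7 pituitary hormone genes with a value. Points are the differences with the spot error as bars, and the open point is Ghrhr, detected on the control array alone. Grey bands run over all processing alternatives, and the dashed line marks 2-fold lower. Pomc, Gh1 and Cga lie beyond the dashed line with the whole band, and Lhb and Fshb come close to 0.

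The genes nearest in difference, which over 2 arrays means only a like difference, were Apoc1, Slc27a5 and Slc2a2 for Pomc and Rcor2, Rxfp3 and Arg1 for Gh1. Apoc1, an apolipoprotein, was at -2.91 ± 0.03, a gap of 0.06 from Pomc. Slc27a5, a bile acid ligase of liver, and Slc2a2, a glucose transporter of liver and islets, were at -3.15 and -3.24. Rcor2, a corepressor, was at -2.23 ± 0.42, Rxfp3, a relaxin-3 receptor of brain, at -2.26 and the liver arginase Arg1 at -2.29.

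Several genes that direct pituitary lineages were not detected. Of 16 such transcription factors 14 had a probe and 8 had a value (median -0.34). Where 3.91% of all genes were at least 2-fold lower and 0.882% higher, 3 of the 8 were lower and 1 was higher. Pou1f1 (Pit-1), required for somatotropes, lactotropes and thyrotropes, the early factor Hesx1, the gonadotrope factor Nr5a1 (SF-1) and the intermediate lobe factor Pax7 were not well above background on either array. On its brighter probe Pou1f1 had a mean intensity of 13.1 in the aneurysm library and 9.26 in the control. On its other probe it read 3.34 in the aneurysm library and 3.63 in the control. Tbx19, which switches on Pomc in corticotropes, had no matched probe and was not analysed here.

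Of the detected factors, Pitx1, which acts across pituitary lineages, was at 499 in the aneurysm library and 492 in the control, a scaled difference of -0.35 ± 0.08 (-0.04 with spike-in scaling). Neurod1, a factor of corticotropes and of neurons, was at -1.13 ± 0.24 (-0.66 with normexp), and the stem cell factor Sox2 at -1.04 ± 0.06, with a second probe at -0.51. The LIM factor Isl1 was higher, at 1.01 ± 0.50 (0.08 with normexp).

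Several receptors by which the brain controls the gland were not detected either. Those for thyrotropin-releasing hormone (Trhr), gonadotropin-releasing hormone (Gnrhr), corticotropin-releasing hormone (Crhr1) and ghrelin (Ghsr) were not well above background on either array. Of 12 receptor genes 11 had a probe and 5 had a value (median 0.09, and -0.19 with normexp). Where 3.91% of all genes were at least 2-fold lower and 0.882% higher, 1 of the 5 was lower and 0 were higher. The somatostatin receptors Sstr2 and Sstr3 were at -1.02 ± 0.20 and -0.996 ± 0.197 (-0.74 and -0.68 with normexp). A further Sstr2 probe read 5.09 in the aneurysm library and 3.54 in the control, with neither spot flagged. The somatostatin receptors Sstr1 and Sstr5 were not lower, at 0.09 ± 0.19 and 0.27 ± 0.51, each within its spot error (-0.08 and -0.19 with normexp). The dopamine receptor Drd2, which restrains lactotropes and is also abundant in striatum, was at 0.88 ± 0.08, while its second probe was at -0.01 ± 0.24.

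Genes for the processing and storage of hormones, expressed in neurons and endocrine cells alike, showed small differences. Where 3.91% of all genes were at least 2-fold lower and 0.882% higher, none of the 15 measured was either. That count is near those shares, so nothing is read from it. The median was -0.18, and 0.12 with spike-in scaling. The prohormone convertases that cut the Pomc precursor, Pcsk1 and Pcsk2, were at -0.09 ± 0.54 and 0.30 ± 0.25, each changing sign under some alternatives. The carboxypeptidase Cpe, which trims the cut peptides, was higher at 0.28 ± 0.06. The granule proteins Vgf and Chga were at -0.72 ± 0.06 and -0.58 ± 0.10. The list ran from -0.72 to 0.30.

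Hormones of the posterior lobe and hypothalamus included the next large difference. Avp, which encodes vasopressin of hypothalamic neurons that end in the posterior pituitary, had a mean intensity of 8728 in the aneurysm library and 36687 in the control. Its difference was -2.44 ± 0.02 over 9 spots per array, or 5.43-fold lower, and -2.13 at its least over the alternatives. Of 15 genes in this list 12 had a value (median -0.60). Where 3.91% of all genes were at least 2-fold lower and 0.882% higher, 4 of the 12 were lower and 0 higher. The lower genes besides Avp were Trh, Pmch and Npy. Trh, the releasing hormone for thyrotropin, had a bound of -1.88 (-0.64 with normexp). Pmch was at -1.11 ± 0.09 (-0.68 with normexp) and Npy at -1.03 ± 0.03 (-0.73 with spike-in scaling). Agrp, made by arcuate neurons next to those that make Pomc, was at -0.40 ± 0.17, and Cartpt, found in many hypothalamic Pomc neurons, at 0.23 ± 0.06. Ghrh, the ligand of the Ghrhr product, was at -0.30 ± 0.27 (0.01 with spike-in scaling), and Gnrh1 at 0.43 ± 0.06. Oxt had no matched probe and was not analysed here.

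Markers of other tissues also differed between the libraries. Of 12 hepatocyte markers, Tat and Cps1 were well above background on neither array. While 3.91% of all genes were at least 2-fold lower, all 10 hepatocyte markers with a value were (median -4.68). Their summed intensity, in units of each array's 75th percentile, was 8.52 in the aneurysm library and 44.1 in the control. Ttr, which the choroid plexus also makes, took 7.93 of that sum in the aneurysm library and 21.2 in the control, and without it the sums were 0.590 in the aneurysm library and 22.9 in the control. Of the 12 oligodendrocyte markers 7 were at least 2-fold lower (median -1.10), with sums of 87.1 in the aneurysm library and 170 in the control, and without Mbp 8.32 in the aneurysm library and 17.1 in the control. Of 10 measured neuron markers 2 were at least 2-fold lower (median -0.41), with sums of 5.54 in the aneurysm library and 7.66 in the control. The 8 pituitary hormone genes had sums of 2.45 in the aneurysm library and 10.3 in the control over the 7 with a value. Pomc took 0.785 of that sum in the aneurysm library and 6.16 in the control. Without it the sums were 1.66 in the aneurysm library and 4.19 in the control. Astrocyte markers (8 measured, median -0.37), pineal markers (2 measured, median -0.36) and erythrocyte markers (4 measured, median -0.86) had no member at a 2-fold difference. Some came close: the erythrocyte marker Alas2 was at -0.999 ± 0.10 and the astrocyte marker Agt at -0.97 ± 0.05. Erythrocyte markers had sums of 79.8 in the aneurysm library and 149 in the control. The part of other tissues in the differences of the pituitary hormone genes was not tested.

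Vessel wall markers were detected in both libraries, and whether they came from the labelled artery alone was not tested. All 11 vessel wall markers with a probe, of 12, were well above background on both arrays, with a median difference of 0.18. None was at 2-fold, which is near the shares of all genes (3.91% lower and 0.882% higher). Their summed intensity was 159 in the aneurysm library and 139 in the control.

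**Figure D3:**
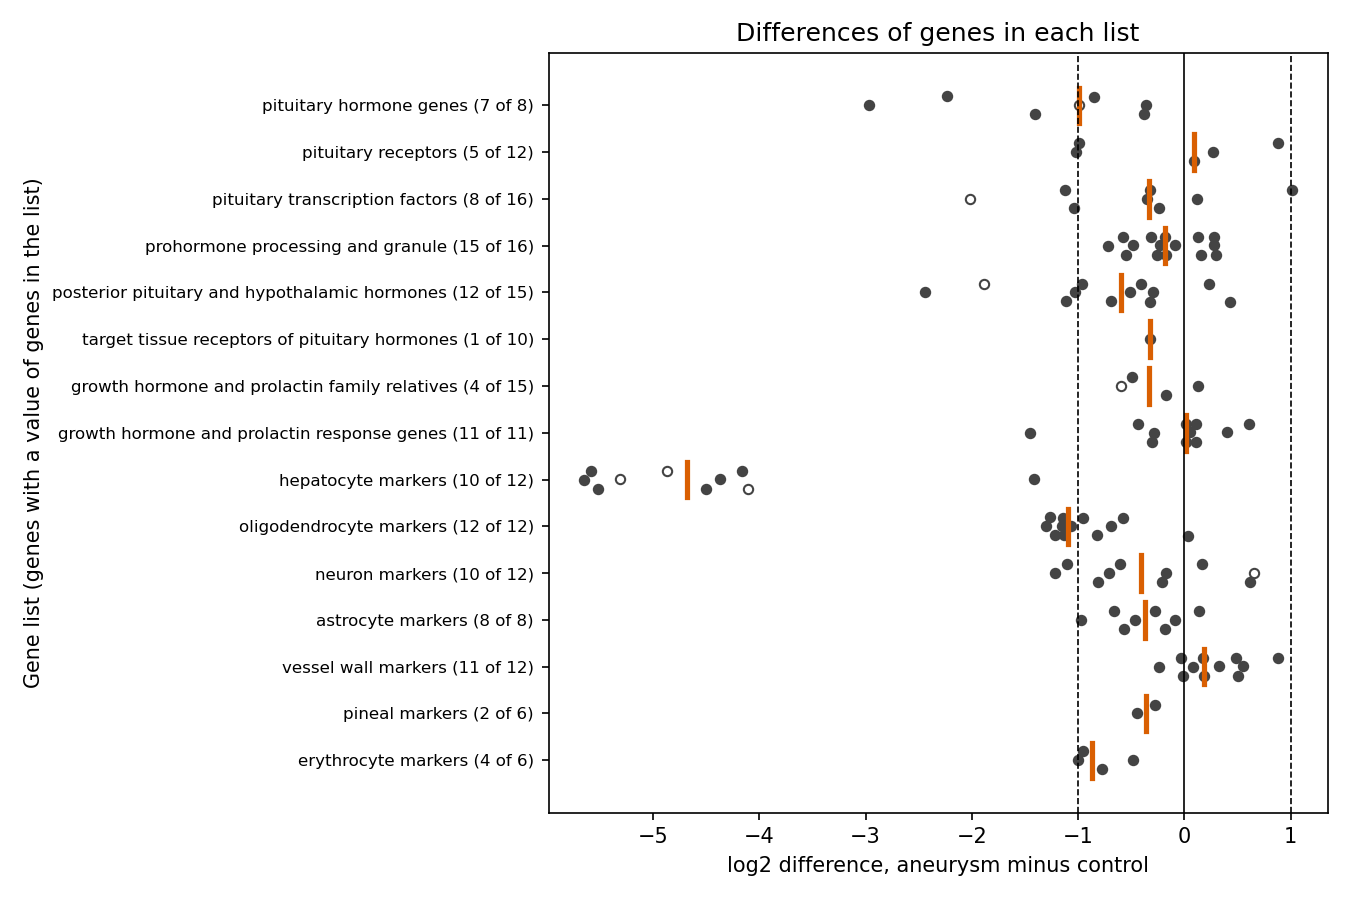
Differences (log2 aneurysm minus control) of the genes of each list, 1 point per gene with a value. Open points are genes detected on 1 array alone, orange bars are list medians and dashed lines mark 2-fold. Pituitary hormone genes spread from -2.97 to -0.36, genes for hormone processing stay within 2-fold, and hepatocyte markers lie farthest from 0 with a median of -4.68.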

How the data were processed

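The authors deposited the scanner output of 1 array per group, written by Feature Extraction (10.10.1.1 in the file headers) for an array designed on rat build rn4. The deposited values are linear spot intensities already processed by that software, beside flags for detection, saturation and outliers, per the file headers; their settings are not given. Per the file headers the arrays shared a slide and a scan.

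Samples were grouped by title. Outlier spots (573 in the aneurysm library, 484 in the control) were dropped, log2 intensities were scaled to each array's 75th percentile, and repeat spots were averaged. Detection was similar (76.4% of non-control spots in the aneurysm library, 74.7% in the control). Accessions without version were looked up in a RefSeq table (GRCr8, names only), which gave 1 gene to 18006 of 30367 probes, several to 0 and none to 12361. A gene took its brightest detected probe. Where 1 array alone detected it, the dim side is set at its own level or, if higher, at the lowest detected level of that array. The value is the measured difference where the dim side kept its own level, and a bound otherwise. The spot error pools spot SDs over probes of like signal in 20 bins.

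The members and lists were chosen with earlier results of these data known. The naming rule took all 8 members, list genes at 2-fold, up to 4 of the largest differences per list (those of other tissues are given as counts), and the 3 genes nearest in difference to Pomc and to Gh1; some genes it takes are not reported here. Alternatives were normexp (limma 3.58.1, offset 50, on median spot and background intensities; the plan named mean spot signals first and these columns otherwise), quantile, median, spike-in and loess scaling, a percentile over detected probes, outliers kept, the mean over probes, other filters on dim probes, and other fold thresholds. The calculation was tested on simulated arrays, in Python 3.11.15.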

Additional observations from a re-analysis of the deposited data

How the results depend on the processing

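Over the alternatives every member with a value stayed below 0: Pomc between -3.02 and -2.67, Gh1 between -2.28 and -1.55, Cga between -1.46 and -1.10, Tshb between -0.90 and -0.55, Ghrhr between -1.04 and -0.51, Fshb between -0.43 and -0.07 and Lhb between -0.41 and -0.055. Spike-in scaling moved the median of all genes to 0.30, a shift common to all genes, so the order of members relative to other genes is kept by construction. With it Pomc was at -2.67, Gh1 at -1.93, Cga at -1.10, Tshb at -0.55 and Lhb at -0.055. With normexp, whose offset shrinks differences of dim genes by construction, Pomc was at -2.82, Gh1 at -1.55 and Tshb at -0.73.

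The median of the pituitary hormone genes (-0.99) was -0.73 with normexp, -0.86 with quantile normalization, -0.68 with spike-in scaling and -0.86 with loess centring. It was -1.20 with no filter on dim probes and -1.13 over genes well above background on both arrays. At least 1.5-fold lower were 5 of the pituitary hormone genes and 1003 of all 11902 genes with a value. The receptor median (0.09) turned to -0.19 with normexp and to -0.38 with no filter, and was 0.40 with spike-in scaling. Its count of 1 gene 2-fold lower was 0 with normexp, quantile, median, spike-in or loess scaling and at 4-fold, and 2 with the percentile over detected probes and at 1.5-fold. The transcription factor median (-0.34) was -0.030 with spike-in scaling, and its count of 3 lower genes was 0 with normexp, 1 with spike-in scaling and 1 at 4-fold. The processing list (-0.18) was -0.25 with normexp, -0.12 with quantile normalization and turned to 0.12 with spike-in scaling, with 1 gene lower at 1.5-fold. The posterior pituitary and hypothalamic median (-0.60) was -0.29 with spike-in scaling, -0.46 with no filter and -0.51 over genes detected on both arrays, and its count of 4 was 1 with normexp, 2 with spike-in scaling and 1 at 4-fold.

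Of all genes, 465 lower and 105 higher at 2-fold became 193 and 14 with normexp, 756 and 183 with no filter, 237 and 51 on both arrays only, 1003 and 506 at 1.5-fold and 178 and 2 at 4-fold. The higher count was 165 with quantile normalization, 166 with loess centring and 311 with spike-in scaling. The share of lower genes among those past 2-fold was 81.6%, and 93.2% with normexp, 71.1% with quantile normalization, 71.0% with loess centring and 51.6% with spike-in scaling. Apart from the constructions named, the cause of these moves was not tested. Signal close to background limits Prl, Ghrhr and Fshb. No paired analysis was possible because each group has 1 array.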

Other observations

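Genes downstream of the pituitary hormones were measured in the same libraries. Of 10 receptors for pituitary hormones in target tissues 9 had a probe, and the growth hormone receptor Ghr alone had a value, at -0.33 ± 0.06 (-0.02 with spike-in scaling). The receptors for prolactin (Prlr), thyrotropin (Tshr), lutropin (Lhcgr), follitropin (Fshr) and corticotropin (Mc2r) were not well above background on either array. A list of 11 genes held those that respond to growth hormone or prolactin and those that carry the signal (Jak2, Stat5a and Stat5b). All had a value, and the median was 0.02, the value of Stat5a (the median was -0.16 with normexp). Where 3.91% of all genes were at least 2-fold lower and 0.882% higher, 1 of the 11 was lower and 0 were higher. The lower gene was Igfals, the liver-made partner of circulating Igf1, at -1.45 ± 0.34 (-0.69 with normexp). Igf1 itself was at -0.29 ± 0.05 (0.02 with spike-in scaling), the growth hormone-induced suppressor Socs2 at 0.11 ± 0.19 and the binding protein Igfbp3 at 0.61 ± 0.06.

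Relatives of growth hormone, prolactin and the glycoprotein hormones were mostly dim. Of 15 such genes 14 had a probe, 10 were not well above background on either array and 4 had a value (median -0.33). None of the 4 was at 2-fold, which is near the shares of all genes (3.91% lower and 0.882% higher). Gpha2 and Gphb5, the subunits of the glycoprotein hormone thyrostimulin, were at -0.49 ± 0.06 and -0.17 ± 0.13 (0.13 for Gphb5 with spike-in scaling). Gpha2 had a mean intensity of 2243 in the aneurysm library and 2442 in the control.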
